A study of Mus musculus with 4 samples.

Results

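Sorted airway smooth muscle from 2 pools of vitamin A-sufficient mice, VAS and CTR, was compared gene by gene as CTR minus VAS. The compared genes were all named genes whose highest log2 value on any of the 4 arrays of the series reached 6.05, the median of all named values. This kept 12395 of 23185 named genes and 2 of the 4 arrays. Each pool held cells of 3 adult mice and was run on 1 Affymetrix expression array, so no spread between mice of one group was measured and no test of the difference between both pools exists. All 4 groups carried the same reporters (Acta2-hrGFP;Cspg4-DsRED), and cells that were green and not red (hrGFP+DsRED-) were collected from the lung by flow cytometry. The green reporter follows Acta2, smooth muscle actin, which myofibroblasts make as well as muscle, and the red one follows Cspg4, a proteoglycan of pericytes and of the muscle of vessels. VAS mice ate a normal diet with vitamin A at 15 IU per gram, and CTR mice a powdered, sufficient diet with corn oil as vehicle for 3 days. The other 2 arrays are used beside them. VAD mice ate vitamin A-deficient food, with less than 0.1 IU in each gram, for 3 days in some label fields and 5 days in another, and BMS mice ate the powdered sufficient diet with a pan-antagonist of the retinoic acid receptors at 5 mcg per gram for 3 days. VAS and VAD form a diet experiment and CTR and BMS an antagonist experiment, so the difference between both controls holds the form of the diet, the corn oil, the mice and everything else that differed between the experiments, which cannot be told apart.

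Airway smooth muscle is the ring of contractile cells around the conducting airways. Acetylcholine from airway nerves contracts it through muscarinic receptors and calcium release, and the matrix it makes with neighbouring fibroblasts holds the airway wall. Cells sorted from digested lung can carry along leukocytes, fibroblasts or epithelial debris, and genes of those cells are the usual background of such a preparation. Retinoic acid, made from vitamin A, acts on gene expression through nuclear receptors, and both pools compared here had a vitamin A-sufficient diet.

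The sort marker was at the same level in both pools. Acta2 read 11.96 in VAS and 11.98 in CTR, with 12.12 in VAD and 11.95 in BMS. Of the 23 airway smooth muscle and myofibroblast markers on the array, 22 passed the filter, and the mean of VAS and CTR lay in the top 5% of named genes for 13 of them. High signals were not particular to these markers. In the top 5% were also 14 of 28 fibroblast markers and 9 of 21 pericyte and vascular smooth muscle markers past the filter. Cspg4, the source of the red reporter, passed the filter, with log2 values from 7.71 in VAS to 8.22 in VAD. The Y-linked genes Eif2s3y, Kdm5d and Uty passed the filter, and Xist, which silences an X chromosome in female cells, read 4.41 to 4.50 on all 4 arrays. The labels do not give the sex of the mice. Array medians lay between 5.97 and 6.02, and Pearson's r between pairs of arrays over all probe sets ran from 0.986 for VAS with CTR to 0.992 for VAS with VAD.

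The pools differed mainly by genes that were lower in CTR. Of the 12395 genes, 212 (1.71%) were at least 2-fold lower in CTR than in VAS and 40 (0.323%) at least 2-fold higher, which is 252 (2.03%) in all. At 1.5-fold the counts were 728 lower (5.87%) and 330 higher (2.66%). The median difference was 0.0025 on the log2 scale, and 6246 genes (50.4%) lay above 0 and 6140 (49.5%) below. The deposited values were normalized by RMA, which equalises the arrays' distributions. A centre near 0 is therefore set by the processing and is not a result. The standard deviation over genes was 0.379. The imbalance was in the lower tail, where the 1st percentile was -1.22 against 0.74 at the 99th. The tail thinned toward high signals. With genes cut into 4 equal bins of mean signal, 2.78% of the lowest bin were 2-fold lower, then 1.84%, 1.42% and 0.807% of the highest. The lowest bin, with means from 4.89 to 6.68, holds genes that reached 6.05 on some arrays only. The filter itself can favour large differences there. Just inside the thresholds stood Klf15 at 1.02 and Ncam1 at -1.0, and just outside Ccdc170 at 0.985 and Chil3 at -0.998.

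**Figure D1:**
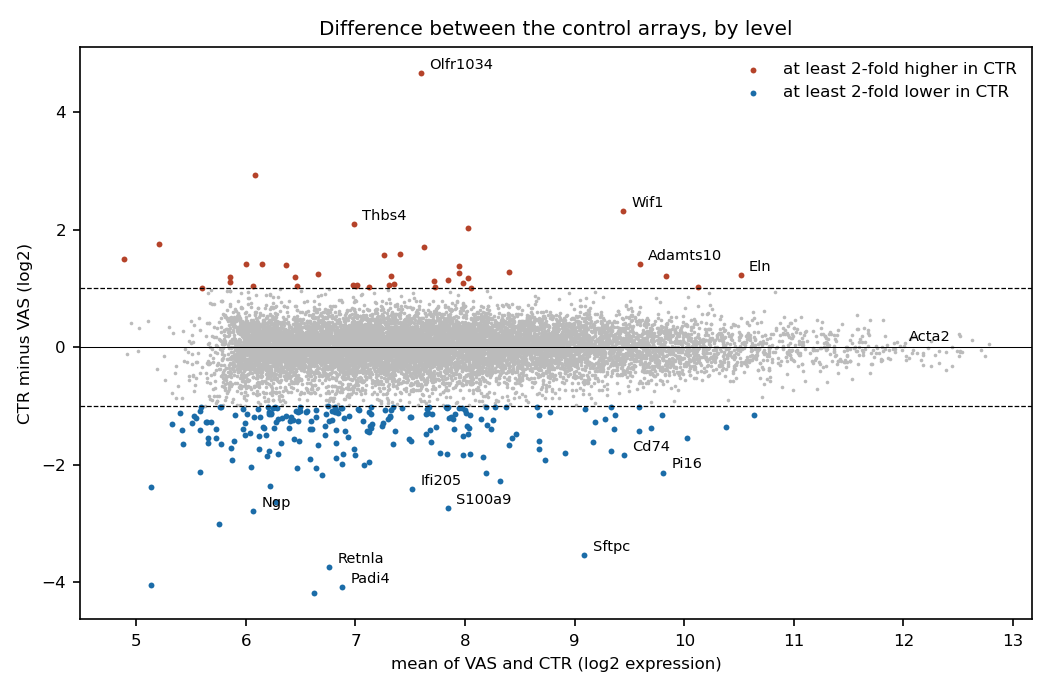
Difference CTR minus VAS (log2, vertical axis) against the mean of both arrays (log2, horizontal axis) for the 12395 genes past the filter, with dashed lines at 2-fold. The 212 blue points below the lower line outnumber the 40 red points above the upper one, and Acta2 sits near 0.

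The 20 largest named reductions in CTR included known markers of leukocytes, alveolar epithelium and fibroblasts, and 4 interferon-inducible genes of the Ifi200 family (Ifi204, Ifi205, Ifi211 and Mndal) described further on. In what follows, 4 log2 values in a row are those of VAS, VAD, CTR and BMS. Padi4, the neutrophil enzyme that citrullinates histones, read 8.92, 4.80, 4.84 and 5.62, a 17.0-fold difference between VAS and CTR. It was high in VAS alone. Retnla, made by alternatively activated macrophages and by lung epithelium, read 8.63, 5.83, 4.89 and 7.42 (13.4-fold). Sftpc, the surfactant protein of type 2 alveolar cells, read 10.86, 9.28, 7.32 and 9.15 (11.6-fold). For both, the treated arrays lay between the controls. S100a9, a subunit of the neutrophil protein calprotectin, read 9.21, 9.19, 6.47 and 6.93, so that both arrays of the diet experiment were high and both of the antagonist experiment low. Its partner S100a8 showed the same order of experiments, with 8.08, 7.74, 6.08 and 5.77. Pi16, a marker of adventitial fibroblasts, read 10.87, 10.77, 8.74 and 9.95, and CTR was lowest. Other genes among the 20 largest reductions were Ngp (-2.79), Serpina1b (-2.64), Csf2 (-2.38), Apod (-2.28), Ccl3 (-2.13), Cxcl3 (-2.06), Ccl8 (-2.06), Vit (-2.04), Mmp12 (-1.99) and Il33 (-1.96).

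The largest increases in CTR included secreted and matrix proteins. Wif1, a secreted inhibitor that binds Wnt ligands, read 8.29, 7.56, 10.60 and 8.71, a 4.97-fold difference, and was highest in CTR. Thbs4, a thrombospondin of the matrix, read 5.94, 6.14, 8.03 and 11.25. Both arrays of the antagonist experiment were above both of the diet experiment, and BMS was far above CTR. Eln, the gene of tropoelastin, read 9.91, 10.69, 11.13 and 10.58, lowest in VAS and highest in CTR. Adamts10, a metalloprotease that binds fibrillin microfibrils, read 8.89, 8.94, 10.30 and 9.40, and was highest in CTR. Pappa2, a protease that cuts IGF-binding proteins, read 9.23, 10.46, 10.44 and 10.47. Npr3, the natriuretic peptide clearance receptor, read 7.44, 8.58, 8.53 and 8.60. In these last 2 genes VAS alone was low and the other 3 arrays agreed to within 0.1. Cacna1e, a voltage-gated calcium channel subunit, read 6.71, 6.81, 7.93 and 6.67, and there CTR alone was high. Further increases were Tdgf1 (1.75), Pde10a (1.59), Atp6v1g1 (1.57), Pnp2 (1.5), Trim67 (1.40), Fam171b (1.28) and Slc25a42 (1.26).

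**Figure D2:**
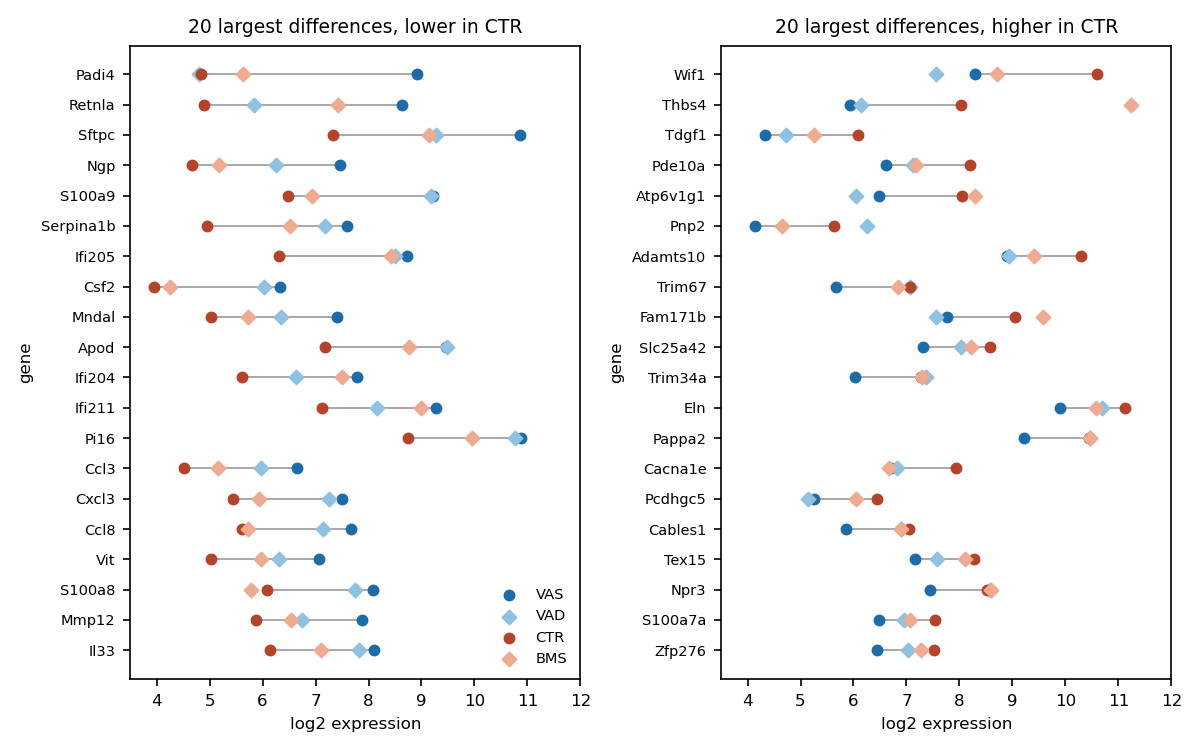
Log2 expression on each of the 4 arrays (circles VAS and CTR, diamonds VAD and BMS) for the 20 largest differences in each direction, leaving out provisional and copy-rich gene names. A grey line joins both controls. S100a9, Csf2 and Ccl8 pair by experiment, Padi4, Pappa2 and Trim67 set VAS apart, and Wif1, Ifi205 and Cacna1e set CTR apart.

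Leukocyte markers stood out among the lists of cell markers. Of 26 macrophage and monocyte markers past the filter, 24 were below 0 and 11 at least 2-fold lower in CTR, with a median of -0.98. Of 14 granulocyte markers, 13 were below 0 and 11 at least 2-fold lower, with a median of -1.46. Of 13 lymphocyte markers, 11 were below 0, with a median of -0.76, and none reached 2-fold. The filter keeps a gene that is high on 1 array only, so the same was read over every marker on the array, where the medians were -0.67 for macrophages (33 of 35 below 0), -0.93 for granulocytes (24 of 29) and -0.43 for lymphocytes (26 of 33). The mean level of the 35 macrophage markers was 6.89 in VAS, 6.73 in VAD, 6.06 in CTR and 6.26 in BMS, and that of the 29 granulocyte markers 6.09, 5.98, 5.11 and 5.17. Both arrays of the antagonist experiment were thus lower than both of the diet experiment. In pooled cells, fewer leukocytes and less leukocyte RNA per cell cannot be told apart.

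Ptprc, the pan-leukocyte phosphatase CD45, read 7.47, 7.39, 5.97 and 6.21. Tyrobp, the signalling adaptor of myeloid receptors, read 7.86, 8.03, 6.12 and 6.25. Il1b, the gene of interleukin-1 beta, read 8.90, 9.46, 7.06 and 7.38. In each of these 3 genes both arrays of the antagonist experiment were at least 2-fold below both of the diet experiment. The same held for 37 (0.299%) of all genes past the filter. The complement subunit C1qc read 6.12, 5.58, 4.71 and 5.19, and Ly6c2, a monocyte marker, read 9.09, 8.62, 7.23 and 8.40. Not every marker followed. Cd68 differed by -0.42, Cd14 by -0.30, Plac8 by 0.32, Cd3e by 0.36 and Ighm by 0.79, and Kit, the mast cell receptor, by 0.08. Of the 212 genes at least 2-fold lower in CTR, 22 (10.4%) were in a leukocyte list, and 22 of the 53 leukocyte markers past the filter (41.5%) were 2-fold lower. Leukocyte markers made up 0.428% of all genes past the filter, and 1.71% of all those genes were 2-fold lower. None of the 40 higher genes was in a leukocyte list, a count too small to set apart from that share. Some genes of lymphocytes are outside these lists. Ighj4, an immunoglobulin joining segment, read 7.01, 7.17, 9.04 and 7.60, and was 2-fold higher in CTR, as was an immunoglobulin kappa variable segment (1.11). Segments of the T cell receptor went the other way, with Traj23 at -1.18 and a variable segment at -1.14. Immunoglobulin and B cell genes did not all rise. The kappa constant gene Igkc read 9.79, 8.87, 9.02 and 9.30, a difference of -0.77, and Cd79b, of the B cell receptor, differed by -0.88.

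**Figure D3:**
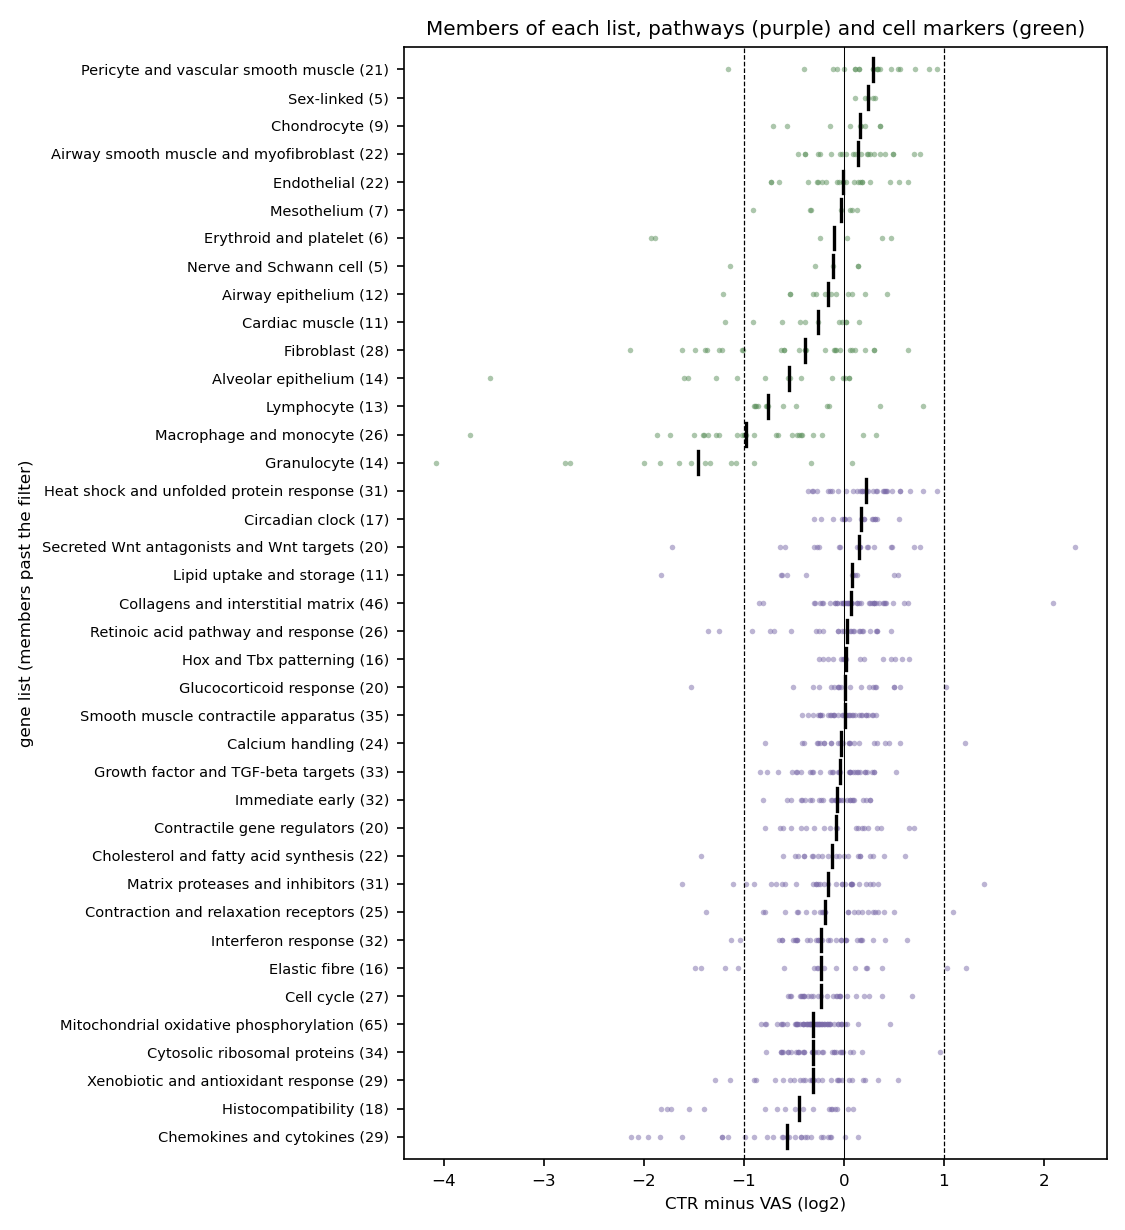
CTR minus VAS (log2) of every member past the filter (points) and the median (black bar) of 15 cell marker lists (green) and 24 pathway lists (purple), with the number of members in parentheses and dashed lines at 2-fold. Granulocyte, macrophage, lymphocyte and alveolar epithelium markers lie lowest, and pericyte markers highest.

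Antigen presentation, chemokine and cytokine genes moved in the same direction. Over all genes past the filter, 49.5% were below 0 and 1.71% at least 2-fold lower in CTR. Of 18 histocompatibility genes past the filter, 16 were below 0 and 5 at least 2-fold lower in CTR, with a median of -0.45. Those 5 were of class II: Cd74 (-1.83), the invariant chain, with H2-Ab1 (-1.77), H2-Aa (-1.73), H2-DMb2 (-1.55) and H2-Eb1 (-1.39). Cd74 read 10.37, 9.88, 8.53 and 9.16. The class I genes H2-D1 and B2m, which nearly all cells make, differed by -0.15 and -0.31. Of 29 chemokine and cytokine genes, 27 were below 0 and 8 at least 2-fold lower, with a median of -0.57. Il33, an alarmin cytokine of stromal and epithelial cells, read 8.10, 7.82, 6.14 and 7.10. Cxcl13, a chemokine that attracts B cells, read 8.50, 8.0, 6.88 and 6.43. Among the 3 chemokine and cytokine genes with the highest signal, Il6 differed by less than the list's median, Cxcl2 by about as much and Ccl2 by more: Il6 read 11.66 in VAS and 11.53 in CTR, Cxcl2 11.80 and 11.25, and Ccl2 11.56 and 10.86. These groups moved with the leukocyte markers above, and the part of those cells in them was not tested.

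In a cluster of interferon-inducible genes, the members past the filter were lower in CTR than on any other array. The Ifi200 genes, which code for proteins that sense or bind DNA, lie side by side on mouse chromosome 1, and the family was singled out after its values were seen. Of 12 members on the array (Aim2 included), 7 passed the filter and all 7 were at least 2-fold lower in CTR. The median of these 7 was -2.15 and the range from -2.41 to -1.67. The filter keeps a gene that is high on 1 array only, and Ifi202b, Ifi204, Ifi207 and Mndal read below 6.05 in CTR. Members that did not pass differed less: Aim2 by -0.18, Ifi208 by -0.18, Ifi209 by -0.57, Ifi213 by 0.11 and Ifi214 by -0.10. Ifi205 read 8.72, 8.50, 6.31 and 8.42. Ifi204 read 7.78, 6.63, 5.60 and 7.49, and Ifi211 read 9.27, 8.16, 7.12 and 8.98. Mndal read 7.40, 6.34, 5.03 and 5.73. CTR was the lowest of the 4 arrays in all 7 genes, VAD was below VAS in all 7, and BMS lay near VAS in 5 of the 7, Ifi202b (7.49 in VAS, 7.55 in BMS), Ifi203 (7.91 and 7.56), Ifi204, Ifi205 and Ifi211, and further below it in Ifi207 and Mndal. The wider interferon response list did not show a change of that size. Its median was -0.22 over 32 genes, 22 of them below 0, and 2 were 2-fold lower: Ifi27l2a (-1.12) and Psmb9 (-1.04), an immunoproteasome subunit. Ifit2 differed by 0.64, Gbp2 by -0.37 and Iigp1 by -0.26.

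The promoters of these genes are shown because the members past the filter moved together and many share one short motif. The search took GAAANNGAAA, the spaced repeat of interferon-stimulated response elements, on both strands of the 250 bases before each RefSeq start. It was present in 978 of 32851 windows (2.98%) and in 291 of 9621 genes past the filter (3.02%). Of the 10 Ifi200 genes with a window, 8 (80.0%) held it. Ifi202b and Ifi209 did not, Ifi204 has no entry, and Aim2 is not among the 10. Several of these windows share bases beyond the motif, so the 8 are not independent of each other, and the share was not tested. Ifi208, Ifi213 and Ifi214, which stayed below the filter, held it too, so the motif did not separate the measured members from the rest. The 150 bases before the start follow for the 5 members past the filter that held it, on the minus strand of GRCm38.p6, 5′ to 3′, with the motif in capitals.
Ifi205, chr1:174031756-174031905: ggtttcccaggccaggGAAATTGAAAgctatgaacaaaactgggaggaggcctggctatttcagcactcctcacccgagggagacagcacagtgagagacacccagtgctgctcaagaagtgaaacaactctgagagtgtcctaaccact
Ifi211, chr1:173913047-173913196: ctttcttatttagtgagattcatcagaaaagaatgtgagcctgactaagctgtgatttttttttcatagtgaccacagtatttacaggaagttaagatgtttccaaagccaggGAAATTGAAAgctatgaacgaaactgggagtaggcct
Ifi207, chr1:173741810-173741959: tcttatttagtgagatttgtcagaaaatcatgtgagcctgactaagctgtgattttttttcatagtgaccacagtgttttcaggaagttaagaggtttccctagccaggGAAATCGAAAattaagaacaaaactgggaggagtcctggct
Mndal, chr1:173880188-173880337: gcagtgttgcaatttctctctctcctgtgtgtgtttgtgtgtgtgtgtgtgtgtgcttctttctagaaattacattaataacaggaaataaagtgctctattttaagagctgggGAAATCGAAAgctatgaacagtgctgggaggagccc
Ifi203, chr1:173942493-173942642: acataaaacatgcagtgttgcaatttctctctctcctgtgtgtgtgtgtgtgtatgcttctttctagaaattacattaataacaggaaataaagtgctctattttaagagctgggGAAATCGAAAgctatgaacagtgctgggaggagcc
The motif began 35 bases before the start in Ifi203, 36 in Mndal, 37 in Ifi211, 41 in Ifi207 and 134 in Ifi205. RefSeq gives Ifi203 and Mndal 2 starts each, and the window shown is the one with the motif nearest its start. The other Ifi203 window held no motif, and the other Mndal window held it 54 bases before its start on the opposite strand. The Mndal and Ifi203 windows are nearly the same sequence, and probe sets of such close copies can share signal.

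Genes at least 2-fold lower in CTR were often neighbours. With the genes past the filter ordered along each chromosome, 35 of the 212 (16.5%) stood directly beside another one, in 13 runs. Over all 12393 placed genes, 406 (3.28%) stood directly beside a gene 2-fold lower in CTR. Beside the Ifi200 genes these were class II genes (H2-Ab1, H2-Aa, H2-Eb1), the C1q chains, the lectins Clec4n, Clec4d and Clec4e, the chemokines Ccl7, Ccl11 and Ccl8, and the pairs S100a8 with S100a9, Adh7 with Adh1, Cfb with C2, Pf4 with Cxcl3, Mir409 with Mir369, Pla1a with Cd80, Rgs1 with Pla2g4a, and Sntb1 with Has2. Several of these are families of related sequence, and the last 3 pairs are not. Of the 40 higher genes, 4 stood in 2 runs, both of microRNA genes, against 0.646% of all placed genes beside a higher one.

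Epithelial and blood cell markers differed less evenly. Of 14 alveolar epithelium markers past the filter, 5 were at least 2-fold lower in CTR, against 1.71% of all genes, with a median of -0.55. After Sftpc these were Slc34a2 (-1.60), Sftpa1 (-1.56), Chil1 (-1.28) and Clic5 (-1.07). Over all 24 on the array the median was -0.21, with 20 below 0. Airway epithelium markers had a median of -0.16, and of its 12 members Hp alone (-1.20) passed 2-fold. Scgb1a1, the club cell secretoglobin, read 5.84 in VAS and 6.27 in CTR. Hbb-b1, a beta globin, read 9.69, 7.69, 7.77 and 9.72, high in VAS and BMS and low in VAD and CTR. The platelet chemokine Pf4 read 7.76, 7.16, 5.88 and 6.41. Endothelial markers had a median of -0.0046 over 22 genes with none past 2-fold.

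Fibroblast genes split. Of 28 fibroblast markers past the filter, 21 were below 0 and 9 at least 2-fold lower in CTR, against 49.5% and 1.71% of all genes. The median of the list was -0.39, while the fibrillar collagen Col3a1 differed by 0.64. Serpinf1, which codes for an anti-angiogenic serpin, read 9.98, 9.64, 8.36 and 10.35. Clec3b, tetranectin, read 9.21, 9.30, 7.72 and 9.23, and Cd34, a surface marker of adventitial fibroblasts, read 10.38, 10.22, 9.01 and 10.72. CTR alone was low in these 3. Dpep1, a dipeptidase, read 10.06, 10.58, 8.66 and 9.27, so BMS was low as well. The fibroblast markers of highest signal were level: Dcn, the proteoglycan decorin, read 12.56 in VAS and 12.47 in CTR, Dpt 12.43 and 12.35, and Gsn 11.76 and 11.66. The mean level of the 29 fibroblast markers was 9.37 in VAS, 9.31 in VAD, 8.83 in CTR and 9.60 in BMS, so the order of arrays differed from that of the leukocyte markers.

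Elastic fibre genes went in both directions. Of 16 past the filter, 2 were at least 2-fold higher in CTR and 4 lower, against 0.323% and 1.71% of all genes, with a median of -0.23. Eln, the core protein of the fibre, was higher, and so was Ltbp2 (1.03), a microfibril protein related to the latent TGF-beta binding proteins. The lower ones were the fibulins Efemp1 (-1.42), Fbln5 (-1.19) and Fbln2 (-1.06), and Emilin2 (-1.49). Efemp1 read 10.30, 9.73, 8.87 and 10.47, lowest in CTR. The microfibril gene Mfap4 differed by -0.20 and Ltbp4 by 0.22. Collagens and interstitial matrix, 46 genes, had a median of 0.07, and Thbs4 alone passed 2-fold. Bgn, a small proteoglycan, read 12.76 in VAS and 12.80 in CTR. Among 31 matrix proteases and inhibitors, Serpinf1 and the metalloprotease inhibitor Timp4 (-1.11) were 2-fold lower and Adamts10 was 2-fold higher.

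Pericyte and vascular smooth muscle markers were mostly higher in CTR, by small amounts. Of 21 past the filter, 17 were above 0, with a median of 0.29, the highest of the 15 marker lists. Pdgfrb, the platelet-derived growth factor receptor of mural cells, read 10.36, 10.78, 11.29 and 10.99. Notch3, the Notch receptor of mural cells, read 9.12, 9.27, 9.83 and 9.43, and Heyl, a Notch target, read 8.83, 9.37, 9.68 and 9.46. In all 3, VAS was lowest and CTR highest, and none reached 2-fold. Of the 4 below 0, Cd248, which fibroblasts also make, alone passed 2-fold, at -1.15, with 11.22, 10.79, 10.06 and 11.63. Cspg4 itself differed by 0.36. Hey2 (0.71), another target of Notch, and Smad3 (0.65), the TGF-beta mediator, were the largest positive differences among the contractile gene regulators, whose 20 members had a median of -0.07.

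Contractile genes differed little between the pools. Of 35 genes of the contractile apparatus past the filter, 18 were above 0 and 17 below, none reached 1.5-fold, and the differences ran from -0.42 for the calcium-binding protein Casq2 to 0.32 for the tropomyosin Tpm3. Tagln, transgelin, read 12.23 in VAS and 12.13 in CTR, and Myl9, a regulatory myosin light chain, 12.27 and 12.05. Myocd, the coactivator that drives smooth muscle genes, read 10.63 and 10.83. Markers of airway smooth muscle and myofibroblasts had a median of 0.15 over 22 genes. The 2 past 1.5-fold were Wnt5a (0.77), a non-canonical Wnt ligand, and Lgr5 (0.71), a receptor for R-spondins. Hhip, which binds hedgehog ligands, read 12.39 in VAS and 12.62 in CTR.

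Most receptors that set airway tone differed by less than 1.5-fold. Of 25 past the filter, 1 was at least 1.5-fold higher in CTR and 4 lower, against 2.66% and 5.87% of all genes. At 2-fold, 1 was higher and 1 lower, against 0.323% and 1.71%. Of the 25, 12 were above 0 and 13 below, with a median of -0.19 that turned to 0.0461 with a 75th percentile filter. Ptgfr, the prostaglandin F receptor, read 6.86, 6.19, 5.48 and 6.30 and was 2-fold lower in CTR, and Npr3 was 2-fold higher. P2rx1, an ATP-gated channel, differed by -0.81, the inducible bradykinin receptor Bdkrb1 by -0.79 and the prostaglandin E receptor Ptger3 by -0.59. Chrm2, a muscarinic acetylcholine receptor, read 10.62 in VAS and 10.32 in CTR, against 9.37 in VAD and 9.54 in BMS. How many genes had both treated arrays below both controls was not counted. P2ry14, a receptor for UDP-glucose, read 11.03 and 11.07, and the endothelin receptor Ednrb 10.38 and 10.16. Among 24 calcium handling genes, Cacna1e alone passed 2-fold, and its relative Cacna1d differed by -0.79. Cacna1c, the pore of the main L-type channel of smooth muscle, differed by 0.45. Atp2a2, the calcium pump of the sarcoplasmic reticulum, read 11.42 and 11.72.

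**Figure D4:**
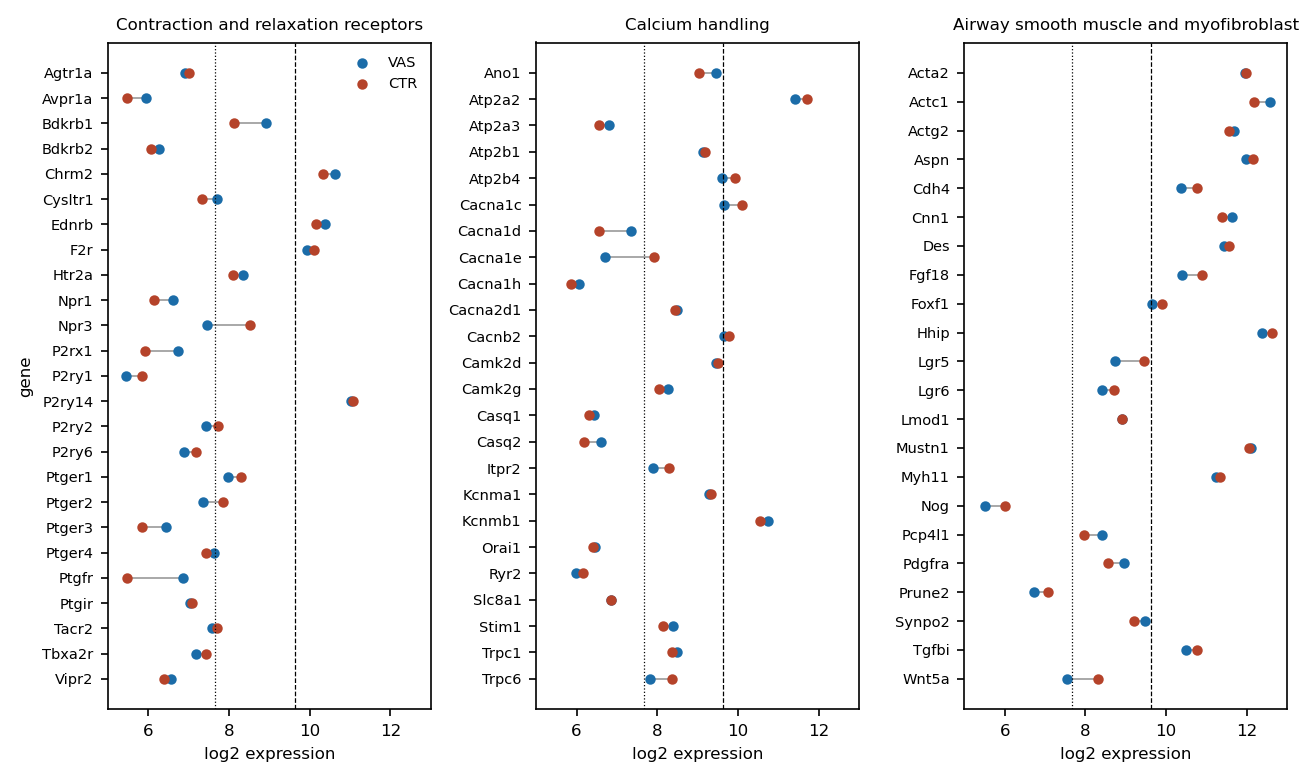
Log2 expression in VAS (blue) and CTR (red) of receptors of contraction and relaxation, calcium handling genes and airway smooth muscle markers past the filter. Vertical lines mark the 75th (7.66, dotted) and 95th (9.62, dashed) percentile of the mean of both arrays over 23185 named genes. Chrm2, P2ry14 and Ednrb lie beyond the 95th percentile in both, and Ptgfr, Npr3 and Cacna1e have the longest lines.

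Genes of the Wnt pathway had 1 member past 2-fold in each direction, Wif1 higher and Frzb lower. Of 20 past the filter, 12 were above 0, with a median of 0.16. Over all 26 on the array the median was 0.0116, with 13 below 0. Against Wif1, Wnt5a and Lgr5 stood Frzb, a secreted frizzled-related inhibitor, which read 6.72, 5.78, 5.01 and 7.92, lowest in CTR and highest in BMS. Sfrp4, of the same family, read 7.92, 7.44, 7.28 and 10.16. Genes of the retinoic acid pathway had a median of 0.03 over 26 genes. The 2 past 2-fold were the alcohol dehydrogenases Adh1 and Adh7, which can oxidise retinol. Adh1 read 11.06, 10.73, 9.70 and 10.87, low in CTR alone, and Adh7 read 7.02, 6.96, 5.77 and 5.54, low in both arrays of the antagonist experiment. Rbp4, the retinol carrier, differed by -0.92, with 8.61, 8.83, 7.70 and 7.88. The retinaldehyde dehydrogenases Aldh1a3 and Aldh1a1 differed by -0.74 and -0.70. Lung patterning factors Tbx2 (0.66), Tbx5 (0.51) and Tbx4 (0.39) were higher in CTR by less than 2-fold.

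Lists of respiration, ribosomes, detoxification and the cell cycle had medians below 0 in CTR. Of 65 genes of mitochondrial oxidative phosphorylation past the filter, 61 were below 0 with a median of -0.31, 7 passed 1.5-fold and none 2-fold. The complex I subunit Ndufb3 differed most, with 9.40, 8.99, 8.57 and 8.97. Of 34 cytosolic ribosomal protein genes, 30 were below 0 with a median of -0.31 and a range from -0.77 to 0.96. Many ribosomal protein genes have close pseudogene copies, so their probe sets are uncertain. Of 29 xenobiotic and antioxidant genes, 23 were below 0 with a median of -0.31. Cyp1b1 (-1.28), a target of the aryl hydrocarbon receptor, and Hmox1 (-1.13), the haem-degrading enzyme, were 2-fold lower. Cell cycle genes had a median of -0.23 over 27, and of -0.0907 over all 50 on the array, with Mki67, the proliferation marker, at -0.44 and Pcna at -0.40. Over all genes past the filter the median was 0.0025, which the normalization holds near 0, so these shifts are relative to the other genes.

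Stress and daily rhythm genes leaned the other way. Of 31 heat shock and unfolded protein response genes, 23 were above 0 with a median of 0.22 and none past 2-fold. Hsph1, a chaperone of the HSP110 family, read 8.72, 9.23, 9.65 and 9.70, and Sdf2l1, induced by stress of the endoplasmic reticulum, 7.53, 8.30, 8.32 and 8.01. VAS was lowest in both. Immediate early genes, which cell dissociation induces, had a median of -0.07 over 32 genes, and 20 of them lay in the top 5% of signals. Fosb read 12.36 in VAS and 12.28 in CTR, and Dusp1 12.52 and 12.45. The largest difference there was Fosl1 at -0.80. Of 17 circadian clock genes, 13 were above 0 with a median of 0.17. Arntl, the activator of the clock, read 8.51, 9.59, 9.06 and 9.10, and its repressor Per2 read 6.88, 6.15, 7.21 and 6.97. Of the glucocorticoid response genes, Klf15 (1.02) was 2-fold higher and Lcn2 (-1.53), also a neutrophil protein, 2-fold lower.

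Lipid genes differed in few members. Fabp4, the fatty acid carrier of adipocytes, macrophages and capillary endothelium, read 8.75, 9.08, 6.92 and 6.96, low in both arrays of the antagonist experiment. Scd1, which desaturates fatty acids, read 7.82, 6.91, 6.39 and 7.54, lowest in CTR. The medians were 0.08 over 11 genes of lipid uptake and storage (-0.11 over all 19 on the array) and -0.12 over 22 of cholesterol and fatty acid synthesis. Growth factor and TGF-beta targets had a median of -0.04 over 33 genes, with none past 2-fold and Igfbp6 lowest at -0.84. In heart muscle markers the median was -0.26 over 11 genes and -0.11 over all 31 on the array, and Trdn, triadin, was 2-fold lower at -1.19. The median was -0.03 in 7 mesothelium markers (-0.24 over all 14), -0.11 in 5 nerve and Schwann cell markers, 0.16 in 9 chondrocyte markers and 0.02 in 16 Hox and Tbx genes, and of these Uchl1 alone, a neuronal hydrolase, passed 2-fold (-1.14).

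MicroRNA genes contributed 8 of the 252 differences. An expression array of this kind reads the hairpin or primary transcript region, not the mature microRNA. Of 135 microRNA genes past the filter, 96 were above 0 with a median of 0.17, 6 were at least 2-fold higher in CTR and 2 lower. Over all genes past the filter, 50.4% were above 0, 0.323% at least 2-fold higher and 1.71% lower. Mir145a read 6.77, 7.07, 8.47 and 7.63, and its neighbour Mir143 read 7.25, 7.44, 8.63 and 7.71. The mature products of this pair are abundant in smooth muscle and promote its contractile state. Mir27b read 5.29, 5.33, 6.71 and 5.29, and its neighbour Mir23b read 6.49, 7.03, 7.53 and 7.19. CTR was the highest array in all 4. Mir1898 (1.41) and Mir493 were also 2-fold higher. Mir493 read 7.44, 8.14, 8.62 and 7.40, and lies on chromosome 12, as do the lower genes Mir369 and Mir409. In the opposite direction, Mir369 read 7.26, 6.47, 4.24 and 3.92, and Mir409 read 6.60, 6.08, 4.95 and 5.60, low in both arrays of the antagonist experiment. Mature sequences from RefSeq GRCm38.p6 are shown for members of both neighbouring pairs that have an entry, plus strand, 5′ to 3′, with the seed (bases 2 to 8) in capitals.
miR-27b-3p, chr13:63300760-63300780: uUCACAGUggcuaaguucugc
miR-23b-5p, chr13:63300492-63300512: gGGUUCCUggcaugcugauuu
miR-369-3p, chr12:109743466-109743486: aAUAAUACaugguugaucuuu
miR-409-3p, chr12:109743204-109743225: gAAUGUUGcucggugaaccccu
These 4 sequences have different seeds. The other mature products of these genes were not compared, and miR-23b-3p has no entry. Whether the genes of a pair share targets by seed was therefore not tested.

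Several genes with provisional or copy-rich names had very large differences, singled out here after their values were seen. Olfr1034, an olfactory receptor, read 5.26, 4.86, 9.93 and 8.83, a 25.4-fold difference and the largest increase. Both arrays of the antagonist experiment were at least 2-fold above both of the diet experiment, which held for 4 (0.0323%) of all genes past the filter. Gm14548, a predicted gene, read 7.16, 7.62, 3.11 and 4.79. Rpl31-ps21, a ribosomal pseudogene, read 8.72, 4.72, 4.53 and 4.36, high in VAS alone, and 1700085C21Rik read 4.62, 6.79, 7.55 and 7.10, low in VAS alone. In all, 30 of the 252 genes had such names, 15 in each direction. Of 22 gamma protocadherins on the array, cell adhesion genes with shared 3′ exons, 17 passed the filter. All 17 were above 0, against 50.4% of all genes, with a median of 0.74. Among them, Pcdhgc5 (1.20) and Pcdhgb5 (1.03) were 2-fold higher. Members below the filter ran from -0.01 for Pcdhga2 to 1.15 for Pcdhgb4. The common exons mean that members of the family need not be independent.

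The treated arrays place each control. For each gene, VAD and BMS were put on the VAS or the CTR side of the midpoint between the controls. Among the 212 genes 2-fold lower in CTR, VAD sided with VAS and BMS with CTR in 96 (45.3%), against 26.3% of all 12395 genes. CTR stood apart from the other 3 arrays in 60 (28.3%), against 27.6%, VAS stood apart in 36 (17.0%), against 31.1%, and 20 (9.43%) were crossed, against 15.0%. Of the 22 leukocyte markers among them, 16 followed the experiment. Of the 9 fibroblast markers, 3 did and in 5 CTR stood apart. The 40 higher genes were spread over the classes, with 12 following the experiment, 14 with CTR apart, 12 with VAS apart and 2 crossed. These classes describe genes chosen on VAS and CTR, and the background share is that of all genes with no such choice.

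**Figure D5:**
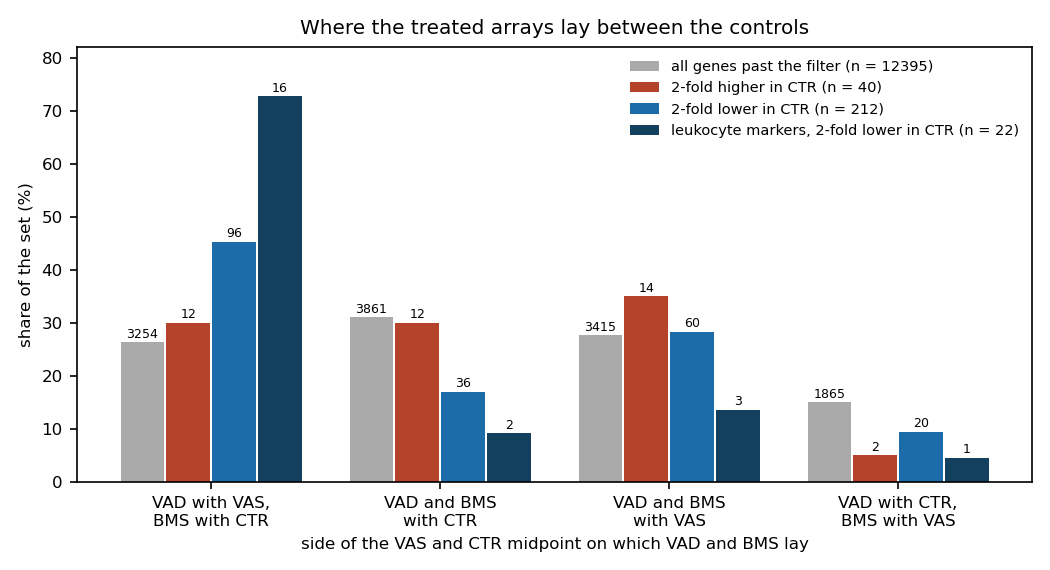
Share of each gene set (%) by the side of the VAS and CTR midpoint on which VAD and BMS lay, with the number of genes above each bar. Genes 2-fold lower in CTR, and leukocyte markers most of all (16 of 22), sit in the first class, where the arrays pair by experiment.

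BMS minus VAD is a second difference between the experiments on arrays not used in the first, and these arrays also differ in treatment. There, 91 genes (0.734%) were at least 2-fold higher in BMS and 141 (1.14%) lower. Of the genes lower in CTR, 52 were also lower in BMS, which is 24.5% of 212 and 36.9% of 141. Of the genes higher in CTR, 5 were also higher in BMS, which is 12.5% of 40 and 5.49% of 91. Going the opposite way were 1 gene higher in CTR (Pnp2) and 10 lower in CTR. In 37 genes (0.299%) both arrays of the antagonist experiment were at least 2-fold below both of the diet experiment, among them S100a9, S100a8, Il1b, Il1r2, Tyrobp, Ptprc, Fabp4, Csf2, Cxcl13, Ccl8, Clec4d, Clec4e, Fpr2, Lilrb4a, Sectm1a, Serpinb9b and H2-Aa. Il1r2, the decoy receptor of interleukin-1, read 7.53, 7.80, 5.63 and 5.88. In 4 genes (0.0323%) both were at least 2-fold above: Olfr1034, Thbs4, Fam171b and Atp6v1g1. Atp6v1g1, a subunit of the proton pump of acidic organelles, read 6.47, 6.05, 8.04 and 8.29, and Fam171b read 7.77, 7.56, 9.04 and 9.57.

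A limma fit of the antagonist against the diet experiment, with treatment as an additive term and 1 residual degree of freedom, called 0 of 12395 genes (0.0%) at a Benjamini-Hochberg adjusted p of 0.05. That term treats the deficient diet and the antagonist as if they had the same effect. The residual, and with it each SE and p-value, therefore rests on how far both treatment differences disagree. It does not measure the spread between pools of one group. At an unadjusted p of 0.05 it had 1367 genes (11.0%), 506 higher and 861 lower. The smallest limma adjusted p was 0.0506, for Olfr1034, with a log2 difference of 4.32 ± 0.20 (SE). S100a9 differed by -2.50, S100a8 by -1.98, Fabp4 by -1.98 and Il1b by -1.96 between the experiments, each with a limma adjusted p of 0.0667. A fit on 3 arrays has no residual degree of freedom with the treatment term, so the fits with an array left out also drop it, and the lone array of one experiment is assumed to vary like the pair of the other. Without that term limma called 6 genes on 4 arrays, 54 without CTR, 71 without BMS and 0 without VAS or VAD. The difference between the experiments is therefore reported as sizes and counts.

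The mean of both controls gave the profile of the sorted cells without a deficient diet or antagonist. Over the 23185 named genes these means had a median of 6.07 and a 95th percentile of 9.62. Signals of different probe sets are not amounts on one scale, so only the place in the array's range is given. Among the 20 highest signals were matrix genes (Bgn, Sparc, Thbs1, Dcn, Dpt, Sparcl1, Mgp), muscle genes (Tagln, Actc1), Hhip, the class I gene H2-D1, the tubulin Tuba1a and the early response genes Fosb, Dusp1, Nr4a1, Zfp36, Zfp36l1 and Hspa1a. Of 35 contractile genes past the filter, 25 were in the top 5%, as were 24 of 46 matrix genes and 20 of 32 immediate early genes. Of the 1160 genes past the filter in the top 5%, 3 were at least 2-fold higher in CTR and 6 lower, and the standard deviation of their differences was 0.289, against 0.379 over all genes past the filter. The highest signal on each array was 12.80 to 12.92, and whether signals near that end are compressed was not tested.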

How the data were processed

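RNA of sorted cells, pooled from 3 mice per group, was measured on 4 arrays, 1 per group (VAS, VAD, CTR, BMS). The authors deposited RMA values in log2 units. The submitters' processing notes name affy 1.36.1 and R 2.15.1. RMA equalises the arrays' distributions, which hides any change common to most genes. Other arrays normalized together with these, if any, are not given in the sources. Of 25206 probe sets, 23185 had 1 gene symbol in GEO's platform annotation, 0 had several and 2021 had none. All 23185 matched RefSeq GRCm38.p6. Scanner files were not used here, and detection above background is not known for any probe set. With 1 array per group, array number sets the precision.

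Differences of log2 values were counted past 2-fold with no test, and lists are described by counts and medians. limma 3.58.1 (R 4.3.3; lmFit, eBayes with trend) was fitted over all genes past the filter and was checked on simulated data. Other steps used Python 3.11.15 with pandas 2.3.3, numpy 2.4.6, scipy 1.17.1 and matplotlib 3.10.9. The genes compared, the 39 lists and the rules were chosen with earlier results of these data known. Named genes are the 20 with the largest differences each way, provisional names left out, up to 5 members per list by difference and 3 by level, the reporter and sex-linked genes, the 15 largest same-way differences in both experiments in each direction, and the 20 highest signals. Others, such as Ltbp2, Ccl7, Pcdhgb5, Ighj4, Traj23, microRNA genes, the remaining Ifi200 genes and members of the neighbour runs, were chosen after their values were seen. Alternatives were other filters, thresholds, normalizations, arrays and limma settings.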

Additional observations from a re-analysis of the deposited data

Results flagged for a closer look

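In 11 genes past 2-fold between the controls, the difference between VAD and BMS was also past 2-fold and went the opposite way. These differences were not tested, since each group is 1 array. Pnp2 was higher in CTR by 1.5 and lower in BMS than in VAD. The other 10 were lower in CTR and higher in BMS than in VAD: Retnla (-3.74), Hbb-b1 (-1.93), Frzb (-1.71), Tecrl (-1.55), 1700019D03Rik (-1.38), Efhd1 (-1.35), Thy1 (-1.11), Fbln2 (-1.06), Itih5 (-1.05) and Dpp4 (-1.02). Dpp4, Thy1 and Fbln2 are made by adventitial fibroblasts, and Dpp4 read 7.0, 5.31, 5.98 and 8.18 on VAS, VAD, CTR and BMS.

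Probe sets with no gene name here, which the report does not use, held differences as well. Of 854 past the same filter, 15 (1.76%) were at least 2-fold lower in CTR and 6 (0.703%) at least 2-fold higher, against 1.71% and 0.323% of the named genes.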

How the results depend on the processing

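No paired analysis was possible because each group is 1 array and both controls come from different mice. Quantile normalization again and cyclic loess kept every count of 2-fold genes within 1.5 times and the sign of every list median of at least 0.1 in size, and moved no named gene's difference by more than 0.123. The 40 genes higher in CTR became 72 with no filter, 23 with a 75th percentile filter, 330 at 1.5-fold and 8 at 3-fold, 70 for BMS in place of CTR and 91 for BMS minus VAD. The 212 lower became 114, 728, 58 and 141 with the 75th percentile filter, at 1.5-fold, at 3-fold and for BMS minus VAD. The share of 2-fold genes that were lower was 84.1%, 78.9% with no filter, 72.1% with BMS in place of CTR and 60.8% for BMS minus VAD. Genes lower in both differences were 31 with the 75th percentile filter, and genes higher in both 8 with no filter. With that 75th percentile filter the classes held 51 genes following the experiment, 16 with VAS apart, 35 with CTR apart and 12 crossed, and 69 had VAS apart with no filter. limma called 6 genes with no treatment term, 1 with a robust prior, 4 with the 75th percentile filter and 1 with cyclic loess, and from 0 to 71 with an array left out, in fits that also lack the treatment term because 3 arrays leave it no residual degree of freedom. The array and filter choices turned some list medians of at least 0.1 in size (smaller ones are read as 0), and the cause was not tested. With BMS in place of CTR, and then for BMS minus VAD, the medians that turned were those of receptors (0.0704, 0.0959), elastic fibre (0.29, 0.23), matrix proteases (0.0426, 0.0236), cholesterol synthesis (0.12, 0.0862), fibroblast (0.30, 0.33), erythroid (0.13, 0.32) and nerve (0.0707, 0.051). For BMS minus VAD alone, cell cycle (0.02), xenobiotic (0.0238), airway smooth muscle (-0.0305) and sex-linked genes (-0.0131) turned. With VAD in place of VAS these were receptors (0.11), heat shock (-0.0159), interferon (0.13), airway smooth muscle (-0.0835) and erythroid (0.0004). The 75th percentile filter turned receptors (0.0461), nerve (0.14) and chondrocyte (-0.17). No filter turned nerve (0.12) and chondrocyte (-0.0512), and a filter on the controls alone turned erythroid (0.0339) and nerve (0.018). The leukocyte and histocompatibility medians kept their sign under every alternative run. The alternative counts and classes for both differences were chosen after seeing the data. One array per group limits all of these values.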
